A study of Mus musculus with 20 samples.

Results

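The integrated stress response genes described here are 10 genes taken by name, Atf4, Atf5, Ddit3, Asns, Chac1, Trib3, Sesn2, Ddit4, Cebpb and Ppp1r15a, out of 24862 gene rows in each count table. All 10 had a row and passed the filter on low counts in each of 3 comparisons. RNA-seq was performed on 12 libraries of mouse TH17 cells, the CD4+ T cells that make interleukin-17, all of strain C57BL/6, in 6 groups of 2 libraries. CNS and ileum libraries came from GFP+ TH17 cells sorted from suspensions of the central nervous system or the ileum, 50000 cells each, and which gene drives GFP is not stated in the labels. Ad-c-Rel and Ad-control libraries came from TH17(β) cells in vitro, with c-Rel overexpression or its control. TH17(β) culture of naive CD4+ T cells used plate-bound anti-CD3ε and anti-CD28 with TGF-β1, IL-6, anti–IL-4 and anti–IFN-γ. The miR-21 knockout libraries (miR-21-/-) and their control libraries came from TH17(23) cells, cultured on the same antibodies with IL-1β, IL-23 and IL-6 but no TGF-β1. The age of the mice, how the c-Rel construct was delivered, and the extent of the miR-21 deletion beyond its name are not stated in the labels. Each member is described across the 6 groups and then in CNS against ileum, Ad-c-Rel against Ad-control, and miR-21 knockout against control.

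In the integrated stress response, kinases that sense unfolded protein in the endoplasmic reticulum (PERK), missing amino acids (GCN2), double-stranded RNA (PKR) or lack of haem (HRI) phosphorylate the translation factor eIF2α. Most translation then falls, while the mRNA of ATF4 is translated more because of short upstream reading frames in its leader, so the Atf4 RNA level does not measure ATF4 protein. ATF4 pairs with C/EBP proteins on target genes for amino acid supply and stress control, and GADD34, made from Ppp1r15a, restores translation by removing the phosphate. In T cells the pathway is known for its sensing of amino acid supply.

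The promoters that bear on these genes were read from RefSeq (build GRCm38.p6), with windows of 250 bases before to 50 bases after each gene's start for all 10 members. The C/EBP-ATF response element, to which ATF4 dimers bind, was searched as TGATGNAAN on both strands. It was present in 3 of 10 members, Asns, Chac1 and Trib3, and in 1299 of 32851 promoters in the table (3.95%). The cyclic AMP response element, TGACGTCA, was present in 1 member, Ppp1r15a, and in 588 promoters (1.79%). A κB element, to which NF-κB proteins such as c-Rel bind, was present in 0 members and in 1480 promoters (4.51%). These 4 promoters are shown because each holds an element searched for. Capitals mark the matched element. Asns, Chac1 and Ppp1r15a are given over the 250 bases before the start, and Trib3 over the element with 10 bases on each side, because its match lies after the start. Asns is on chr6:7693210-7693459, minus strand, with the element's first base at −23 from the start. Chac1 is on chr2:119350992-119351241, plus strand, with the element at −194 on the opposite strand. Trib3 is on chr2:152344029-152344057, minus strand, with the element from base 14 of the transcript, on the opposite strand. Ppp1r15a is on chr7:45526269-45526518, minus strand, with the element at −12. A match shows only that these letters are present.
Asns: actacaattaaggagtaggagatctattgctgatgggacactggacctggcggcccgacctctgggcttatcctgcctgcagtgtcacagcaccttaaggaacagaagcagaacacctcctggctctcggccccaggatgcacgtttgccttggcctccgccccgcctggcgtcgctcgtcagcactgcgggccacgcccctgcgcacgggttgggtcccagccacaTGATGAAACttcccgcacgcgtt
Chac1: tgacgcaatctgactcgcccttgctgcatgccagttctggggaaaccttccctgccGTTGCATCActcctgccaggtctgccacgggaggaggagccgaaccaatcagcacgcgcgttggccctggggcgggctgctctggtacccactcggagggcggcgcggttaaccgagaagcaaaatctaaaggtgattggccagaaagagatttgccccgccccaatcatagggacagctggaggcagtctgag
Trib3: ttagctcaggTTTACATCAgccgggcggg
Ppp1r15a: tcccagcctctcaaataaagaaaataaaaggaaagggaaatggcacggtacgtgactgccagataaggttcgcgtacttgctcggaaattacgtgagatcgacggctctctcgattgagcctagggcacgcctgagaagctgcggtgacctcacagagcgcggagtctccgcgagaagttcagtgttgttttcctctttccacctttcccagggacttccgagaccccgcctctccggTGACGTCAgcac

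Library depth was 15421743 to 19930807 gene counts in the CNS, ileum, Ad-c-Rel and Ad-control groups and 32766097 to 36711252 in the miR-21 groups. Levels are given in CPM, gene counts scaled to a total of 1000000 per library. Replicate 2 of each tissue held fewer genes with a count than replicate 1, with 11545 against 14224 genes in CNS and 10771 against 13927 in ileum. No label ties a replicate to its own animal or culture, so p-values measure the spread between these libraries alone, and that spread may be technical. Rel, the gene overexpressed, had 57.5 and 61.9 CPM in Ad-c-Rel, against 10.8 and 7.02 CPM in Ad-control. Mir21a, the precursor gene of miR-21, had 0 counts in both knockout libraries, against 25 and 20 in the control libraries. T cell identity genes were detected in every group (summed level 5561 to 5664 CPM in CNS, 6613 to 6778 CPM in ileum and 3556 to 7921 CPM in the cultures). The sorted cells also carried RNA of other cells. Summed over 20 myeloid and microglia markers, the level was 28778 and 29718 CPM in CNS, against 2959 and 3189 CPM in ileum and 124 to 277 CPM in the cultures.

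**Figure D1:**
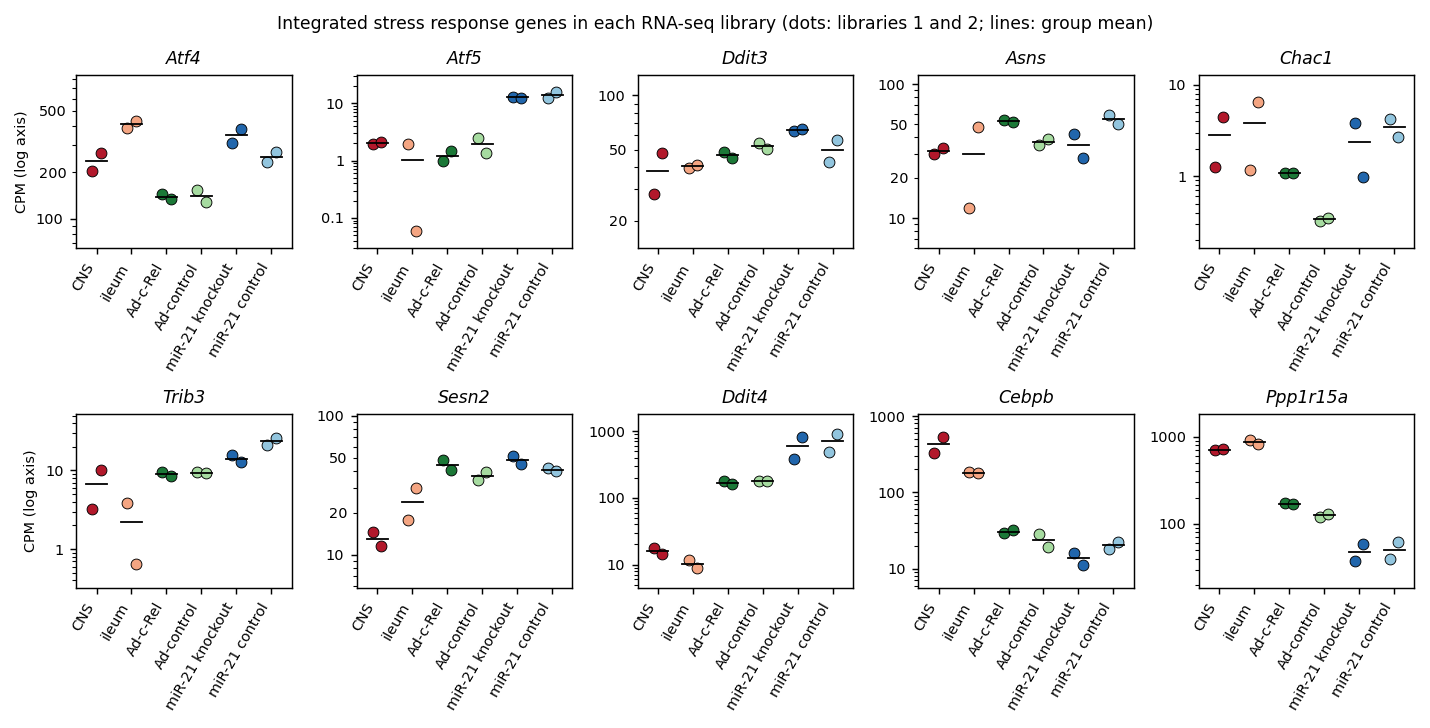
Level of each of the 10 genes in each of 12 libraries, in CPM on a log axis, with the groups along the horizontal axis, a dot per library and a line at the group mean. Ddit4 was between 8.98 and 17.6 CPM in the tissue libraries and between 161 and 910 CPM in the cultures, and Cebpb and Ppp1r15a ran the other way.

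Across the 6 groups, 4 members (Ddit4, Cebpb, Ppp1r15a and Sesn2) separated sorted from cultured cells in every library, as did 28.1% of 13815 genes that passed a filter over the 12 libraries, so that 4 of 10 is read against that share. Group means of 2 libraries are given here, and the libraries themselves under each comparison. Ddit4 (REDD1), an inhibitor of mTORC1 that stress and glucocorticoids induce, averaged 16.1 CPM in CNS and 10.3 CPM in ileum, below 170 CPM in Ad-c-Rel, 177 CPM in Ad-control, 603 CPM in the miR-21 knockout and 700.1 CPM in its control. The highest group mean was 67.7 times the lowest. Cebpb, a C/EBP transcription factor that is abundant in myeloid cells, ran the other way, with 431 CPM in CNS and 182 CPM in ileum, against 30.6 CPM in Ad-c-Rel, 23.6 CPM in Ad-control, 13.7 CPM in the knockout and 20.1 CPM in its control. Ppp1r15a followed the same split, with 712 CPM in CNS and 872 CPM in ileum, against 170 CPM in Ad-c-Rel, 125 CPM in Ad-control, 48.1 CPM in the knockout and 50.7 CPM in its control. The range was 31.5-fold for Cebpb and 18.1-fold for Ppp1r15a. The pairs differ in cell source and culture. Sorted and miR-21 libraries also differ in library kit, and for the Ad libraries no kit is clearly named. Source, culture and kit thus cannot be told apart in the levels between pairs, and no test was made there.

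The other members had smaller or noisier ranges. Group means of Ddit3, which encodes the transcription factor CHOP, spanned 1.70-fold, and those of Asns, which makes asparagine, 1.81-fold. Atf4 spanned 2.94-fold, with Ad-c-Rel and Ad-control lowest (139 and 141 CPM) and ileum highest (408 CPM). Sesn2, a leucine sensor that holds back mTORC1, spanned 3.70-fold, with CNS lowest (13.1 CPM) and the knockout highest (48.3 CPM), and no tissue library above 30.2 CPM or culture library below 34.3 CPM. Trib3, a pseudokinase that ATF4 and CHOP induce and that restrains them, was lowest in ileum (2.23 CPM) and highest in the miR-21 control (23.7 CPM). Atf5, a relative of Atf4 that is translated in the same way, and Chac1, which breaks down glutathione, had few counts. Chac1 reached at most 6.46 CPM in any library, and Atf5 at most 2.46 CPM outside the TH17(23) libraries, where it was at 12.3 to 15.9 CPM. Libraries of neighbouring groups in the order of means overlapped in 1 of 5 steps for Cebpb and Ppp1r15a, in 2 for Atf4, Sesn2 and Ddit4, in 3 for Ddit3 and Trib3 and in 4 for Atf5, Asns and Chac1. With TMM-scaled CPM over the 12 libraries the order stayed the same for 6 of 10 members. It differed for Atf4, Asns, Trib3 and Ppp1r15a, where Ad-c-Rel and Ad-control changed places for Atf4 and Trib3, and the miR-21 knockout and its control for Ppp1r15a.

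Profiles of other genes were set beside those of Atf4, Ddit3 and Asns, as the root mean square (RMS) difference of log2(CPM + 0.5) values centred over the 12 libraries, for 10144 genes of at least 5 CPM on average. Nearest to Atf4 were Susd6 (RMS 0.16), Suco (0.18), Ubl5 (0.19) and Sf1 (0.21), where the median gene was at 1.09. Nearest to Ddit3 were Hp1bp3 (0.17), Smc1a (0.17), Wdr37 (0.18) and Mrpl9 (0.18), with a median of 0.84. Nearest to Asns were Wdr55 (0.22), Pfas (0.28), Snrpd3 (0.29) and Mtfmt (0.29), with a median of 0.95. None of these 12 genes is on a list of ATF4 targets used here. The members were left out of this search and the list of other ATF4 targets holds 27 genes, so few matches were possible. These distances also take in the differences in source, culture and any difference in kit between pairs, and shared regulation was not tested.

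In CNS against ileum, Atf4 was the member called, and it was lower. Atf4 had 205 and 265 CPM in CNS, against 386 and 429 CPM in ileum. Both CNS libraries lay below both ileum libraries, and the log2 fold change was −0.99 (SE 0.186, adjusted p = 0.0328 by edgeR's quasi-likelihood test with Benjamini-Hochberg adjustment over 12038 genes). That is 1 of 10 members called lower and 0 higher, where 5.66% of all genes were called lower and 4% higher. At an unadjusted p under 0.05 there were 3 members, against 24.4% of all genes, and DESeq2 called 2 lower and 1 higher, against 15.1% and 14.4% of all genes. The groups did not overlap in 5 of 10 members, against 60.5% of all genes, and the median log2 fold change was −0.20 over the members and 0.08 over all genes. The median over the members depended on single libraries, at 0.0052 beside −0.09 over all genes without CNS replicate 1 and 0.03 beside 0.05 without ileum replicate 2, and at 0.24 beside 0.53 with T cell identity scaling. The Atf4 call ended without CNS replicate 1 (adjusted p = 0.0567), without ileum replicate 2 (adjusted p = 0.0815) and when libraries were scaled to the T cell identity genes (log2 fold change −0.54, adjusted p = 0.127).

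Cebpb and Ppp1r15a stood close to the threshold in CNS against ileum. Cebpb had 327 and 534 CPM in CNS, against 184 and 179 CPM in ileum. Cebpb libraries did not overlap, with a log2 fold change of 1.05 (SE 0.267, adjusted p = 0.0737). It passed in DESeq2 (adjusted p = 0.000551), without CNS replicate 1 (adjusted p = 0.00990) and with T cell identity scaling (adjusted p = 0.0199). Ppp1r15a had 702 and 722 CPM in CNS, against 913 and 832 CPM in ileum, with a log2 fold change of −0.49 (SE 0.126, adjusted p = 0.0737), and with T cell identity scaling it was −0.04. It passed in DESeq2 (adjusted p = 8.11e-06) and with no filter (adjusted p = 0.0349), and leaving out single libraries gave adjusted p of 0.104 to 0.188 by edgeR. Sesn2 had 14.6 and 11.6 CPM in CNS, against 17.9 and 30.2 CPM in ileum and a log2 fold change of −1.07 (SE 0.563, adjusted p = 0.328). The Sesn2 groups did not overlap, but the ileum libraries differed by 1.69-fold between themselves.

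Asns, Chac1, Trib3 and Atf5 were not called in the sorted cells, and their ileum libraries differed widely between themselves. Asns had 30.0 and 33.1 CPM in CNS, against 11.9 and 48.2 CPM in ileum, so that both CNS libraries lay between the ileum libraries. Its log2 fold change was −0.11 (SE 0.685), and it was 0.31 with T cell identity scaling. Chac1 had 1.25 and 4.42 CPM in CNS, against 1.17 and 6.46 CPM in ileum, with replicate 2 high in both tissues. Trib3 had 3.27 and 10.2 CPM in CNS, against 3.81 and 0.646 CPM in ileum. Atf5 had 1.96 and 2.13 CPM in CNS, against 1.97 and 0.0587 CPM in ileum, the last from 1 count. Ileum replicates thus differed by 4.06-fold for Asns, 5.52-fold for Chac1, 5.91-fold for Trib3 and 33.5-fold for Atf5. The other two, Ddit3 (28.1 and 47.6 CPM in CNS, against 39.7 and 41.0 CPM in ileum) and Ddit4 (17.6 and 14.6 CPM in CNS, against 11.7 and 8.98 CPM in ileum), were not called, with log2 fold changes of −0.29 (SE 0.393) and 0.43 (SE 0.653).

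Markers of other cells moved with tissue beside these values. Of 20 myeloid and microglia markers, 19 were called higher in CNS and 0 lower, and Siglech or Sall1 was at 0 in an ileum library. Of 8 tested neutrophil markers, 4 were higher and 0 lower, with summed levels over the 9 on the list of 424 and 378 CPM in CNS, against 10.2 and 0.117 CPM in ileum. Ly6g was at 0 in both ileum libraries and in CNS replicate 2. Of 8 tested B and plasma cell markers, 6 were lower, with summed levels of 341 and 344 CPM in CNS, against 4238 and 4119 CPM in ileum. Most of the CNS sum was Xbp1 (332 CPM on average, against 611 CPM in ileum). Jchain averaged 0.966 CPM in CNS and 3298 CPM in ileum. Ms4a1, Pax5 and Cr2 were at 0 in both CNS libraries. Of 12 T cell identity genes, 4 were lower and 0 higher. The 8 epithelial markers summed to 19.2 and 17.1 CPM in CNS, against 12.5 and 0 CPM in ileum. The part of these other cells in the values of Atf4, Cebpb, Ppp1r15a, the other members and the gene lists that follow was not tested. In such bulk samples fewer cells of a type and less RNA per cell cannot be told apart.

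**Figure D2:**
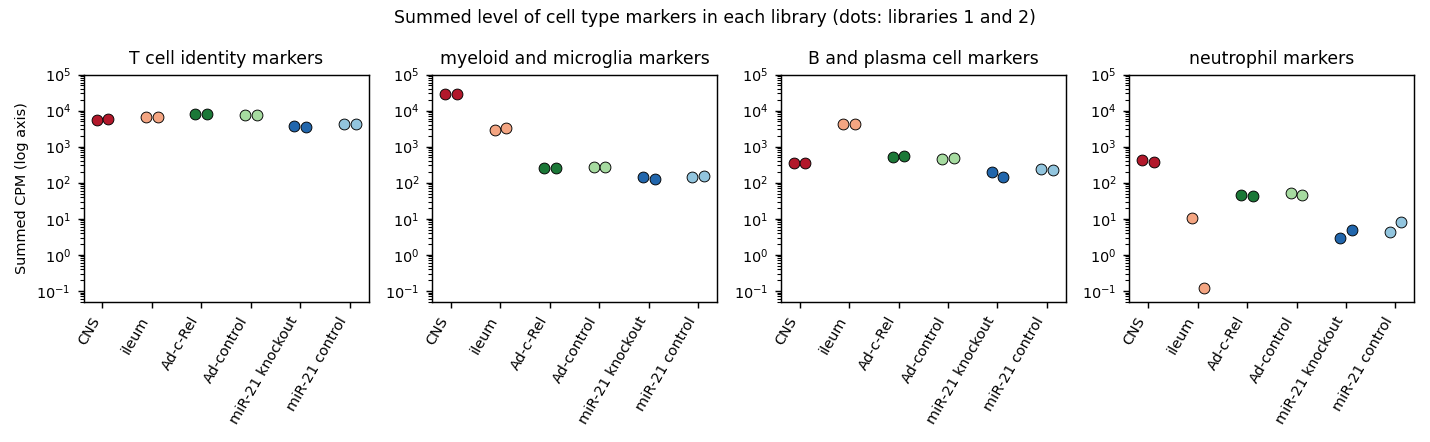
Summed level of 4 marker lists in each of 12 libraries, in CPM on a log axis, with groups along the horizontal axis and a dot per library. Myeloid and microglia markers are at 28778 and 29718 CPM in CNS, above every other library, and B and plasma cell markers at 4238 and 4119 CPM in ileum. The B and plasma cell sum includes Xbp1, at 332 CPM in CNS and 611 CPM in ileum on average.

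Lists of related genes held calls in both directions in CNS against ileum, where 4% of all genes were called higher and 5.66% lower. Of 22 tested members of a list of other ATF4 targets, 2 were called higher and 3 lower, with a median of 0.34. That median was −0.20 without CNS replicate 1, and leaving out single libraries gave 1 to 5 higher and 2 to 4 lower, while DESeq2 called 6 higher and 3 lower. Atf3, a stress-induced repressor, was higher (628 CPM in CNS and 209 CPM in ileum on average, log2 fold change 1.39, SE 0.155). Slc3a2, the shared chain of amino acid exchangers, was lower (765 CPM in CNS and 2203 CPM in ileum, −1.72, SE 0.185), as was the arginine and lysine transporter Slc7a1 (35.9 CPM in CNS and 121 CPM in ileum, −1.96, SE 0.234). Among 20 cytosolic tRNA synthetases, which charge tRNAs with amino acids, Wars was higher (1.36) and Eprs lower (−2.21), shares near those of all genes. The Wars call ended without any single library (adjusted p 0.0608 to 0.182 by edgeR). Of 13 genes of the eIF2 axis, the kinases, eIF2 and its exchange factor eIF2B, 0 were higher and 2 lower, Eif2b2 (−1.48) and Eif2s3x (−1.04). Both calls ended without ileum replicate 2 (adjusted p = 0.0530 for Eif2b2 and 0.0705 for Eif2s3x by edgeR) and with T cell identity scaling, and the Eif2s3x call also without CNS replicate 1 (adjusted p = 0.0765) or ileum replicate 1 (adjusted p = 0.0671). Of 22 endoplasmic reticulum chaperones and XBP1 or ATF6 targets, 0 were higher and 8 lower, with a median of −0.73. The chaperone Hspa5 (BiP) was at 2059 CPM in CNS and 5844 CPM in ileum (−1.70, SE 0.0874), Ern1, which encodes the sensor IRE1, reached −2.99, and Hsp90b1 −0.93. With T cell identity scaling, which raised the median of all genes to 0.53, that list had 4 lower and 1 higher. This list shares Xbp1 with the B and plasma cell markers, and the part of such cells in its values was not tested.

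Smaller lists gave further context in the same tissues. Cebpa, a C/EBP relative of Cebpb, was higher (1.84, SE 0.371, adjusted p = 0.0400 by edgeR), a call that ended without CNS replicate 1 (adjusted p = 0.120) and in a fit of all 12 libraries (adjusted p = 0.0619). Of 13 tested p53 targets, 3 were lower and 0 higher, Trp53inp1 (−2.50), Cdkn1a (−1.49) and Pmaip1 (−1.28). Of 12 glucocorticoid and hypoxia targets, the inducers to which Ddit4 also answers, 3 were higher and 2 lower, led by Bnip3 (3.35), Ndrg1 (−2.09) and Fkbp5 (1.82). Of 17 tested genes of mTORC1 control, the arm on which Sesn2 and Ddit4 act, 1 was lower, Rheb (−1.25), and 0 were higher. With T cell identity scaling 0 of these were lower and 1 higher, beside 3.18% and 8.05% of all genes. DESeq2 called 4 lower and 1 higher, beside 15.1% and 14.4% of all genes.

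In Ad-c-Rel against Ad-control, 4 of 10 members were called higher and 0 lower, and Atf4 itself was not called. Over 11711 genes, 8.16% were called higher and 6.12% lower. The groups did not overlap in 6 of 10 members, against 58.7% of all genes, and the median log2 fold change was 0.18 over the members and −0.01 over all genes. Asns had 53.9 and 52.0 CPM in Ad-c-Rel, against 34.9 and 39.1 CPM in Ad-control. Both Ad-c-Rel libraries lay above both Ad-control libraries, and the log2 fold change was 0.57 (SE 0.0983, adjusted p = 0.00100 by edgeR). Ppp1r15a had 172 and 168 CPM in Ad-c-Rel, against 120 and 131 CPM in Ad-control, again without overlap (0.49, SE 0.0801, adjusted p = 0.000598 by edgeR). Neither call was lost when any single library was left out, with adjusted p of 0.000613 to 0.0184 for Asns and 0.000520 to 0.0100 for Ppp1r15a.

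The 2 other calls with added c-Rel were less firm. Chac1 had 19 and 18 counts (1.08 and 1.10 CPM) in Ad-c-Rel, against 5 and 7 counts (0.324 and 0.351 CPM) in Ad-control. Its log2 fold change was 1.72 (SE 0.513, adjusted p = 0.0363 by edgeR), and the ratio of summed counts, scaled to depth, was 3.21, with an exact binomial 95% interval of 1.63 to 6.75 that covers counting error only. The Chac1 call ended in DESeq2 (adjusted p = 0.190) and without any single library (adjusted p 0.135 to 0.186 by edgeR). Cebpb had 29.1 and 32.1 CPM in Ad-c-Rel, against 28.0 and 19.2 CPM in Ad-control, without overlap but with the lowest Ad-c-Rel library close to the highest Ad-control library (0.45, SE 0.140, adjusted p = 0.0446 by edgeR). The Cebpb call ended in DESeq2 (adjusted p = 0.0924), without Ad-c-Rel replicate 2 (adjusted p = 0.129) and without Ad-control replicate 2 (adjusted p = 0.314, with a log2 fold change of 0.20).

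Sesn2 had 47.8 and 40.5 CPM in Ad-c-Rel, against 34.3 and 39.2 CPM in Ad-control, without overlap and without a call (0.32, SE 0.11, adjusted p = 0.0657 by edgeR). It passed without Ad-c-Rel replicate 2 (adjusted p = 0.0352) and without Ad-control replicate 2 (adjusted p = 0.04999). Atf4 had 144 and 134 CPM in Ad-c-Rel, against 153 and 128 CPM in Ad-control, and its log2 fold change was 0.04 (SE 0.0863). Ddit3 had 48.7 and 44.7 CPM in Ad-c-Rel, against 54.5 and 50.6 CPM in Ad-control (−0.11, SE 0.0925). Trib3 had 9.67 and 8.46 CPM in Ad-c-Rel, against 9.47 and 9.28 CPM in Ad-control (0.01, SE 0.153). The Atf4 and Trib3 groups overlapped, while the Ddit3 libraries did not. Ddit4 had 179 and 161 CPM in Ad-c-Rel, against 177 CPM in both Ad-control libraries, and Atf5 had 17 and 24 counts in Ad-c-Rel, against 38 and 27 in Ad-control. The log2 fold changes were −0.00 (SE 0.0778) for Ddit4 and −0.56 (SE 0.389) for Atf5.

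**Figure D3:**
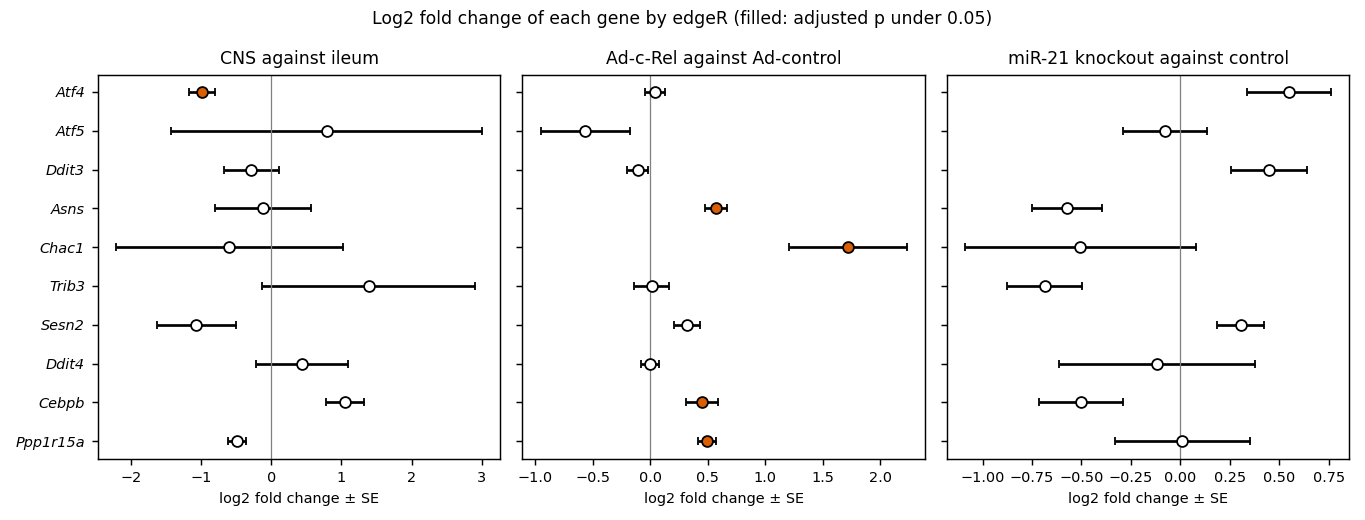
Log2 fold change of each of the 10 genes (vertical axis) in the 3 comparisons, as points with bars of 1 SE on either side, filled where the adjusted p was under 0.05. Filled points are Atf4 (−0.99) in CNS against ileum, and Asns (0.57), Chac1 (1.72), Cebpb (0.45) and Ppp1r15a (0.49) in Ad-c-Rel against Ad-control.

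Around the members, most called genes on the stress lists were higher with added c-Rel, where 8.16% of all genes were called higher and 6.12% lower. Of 24 tested other ATF4 targets, 8 were called higher and 0 lower, with a median of 0.22. DESeq2 called 5 of them higher and 0 lower, beside 5.7% and 3.67% of all genes. Atf3 had 12.7 and 13.9 CPM in Ad-c-Rel, against 5.32 and 4.21 CPM in Ad-control (1.55, SE 0.168), and Slc7a1 (0.62, SE 0.133) and the mitochondrial folate enzyme Mthfd2 (0.41, SE 0.0872) were called with it. Of 22 endoplasmic reticulum chaperones and XBP1 or ATF6 targets, 13 were higher and 0 lower, with a median of 0.30, and DESeq2 called the same numbers. The oxidase Ero1l was at 3351 CPM in Ad-c-Rel and 2170 CPM in Ad-control (0.68, SE 0.0809), Hspa5 at 862 CPM in Ad-c-Rel and 576 CPM in Ad-control (0.64, SE 0.0757) and Edem1, of protein degradation, at 860.4 CPM in Ad-c-Rel and 596 CPM in Ad-control (0.59, SE 0.0855). Among 20 cytosolic tRNA synthetases 4 were higher and 2 lower, led by Vars (−0.52), Cars (0.42) and Qars (−0.35). The higher count was 1 with DESeq2 and 0 to 4 with a library left out (1 without Ad-c-Rel replicate 1, 0 without Ad-c-Rel replicate 2 or Ad-control replicate 1). Of 13 eIF2 axis genes, Eif2s2 (0.29) was higher and 0 were lower, and of 17 tested mTORC1 control genes Sesn3 (0.28) was higher and 0 were lower. The eIF2 axis held 0 called genes without either Ad-c-Rel library or Ad-control replicate 1, and mTORC1 control held 0 without Ad-c-Rel replicate 2 or either Ad-control library.

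Genes of lists outside the stress pathway were called higher as well. Of 14 p53 targets, 7 were higher and 0 lower, led by the cell cycle inhibitor Cdkn1a (0.47), Pmaip1 (0.59) and Zmat3 (0.50). DESeq2 called 4 of these higher and 0 lower, beside 5.7% and 3.67% of all genes. Of 12 glucocorticoid and hypoxia targets, 7 were higher and 1 lower, led by Ankrd37 (0.80), Per1 (0.87) and Adm (0.71). Among the glucocorticoid targets Per1 was higher, Tsc22d3 was lower (−0.37, SE 0.073), and Fkbp5, Klf9 and Zbtb16 were not called. Leaving out single libraries gave 3 to 6 higher among the other ATF4 targets, 6 to 13 among the chaperones and 3 to 5 among the p53 targets, each with 0 lower. No member or chaperone was called in a fit of all 12 libraries together, which called 0.13% of genes higher. Of 12 T cell identity genes in the same libraries, 4 were higher and 1 lower. Myeloid and microglia markers summed to 255 and 248 CPM in Ad-c-Rel, against 270.2 and 277 CPM in Ad-control, with 3 higher and 1 lower of 7 tested and C1qa, C1qb, C1qc, Trem2, Sall1 and Siglech at 0 in all 4 libraries. B and plasma cell markers summed to 526 and 538 CPM in Ad-c-Rel, against 452 and 473 CPM in Ad-control, with 1 of 3 tested higher. That gene was Xbp1, which made up most of the sums (528 CPM in Ad-c-Rel and 461 CPM in Ad-control on average). The part of such cells in these results was not tested.

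**Figure D4:**
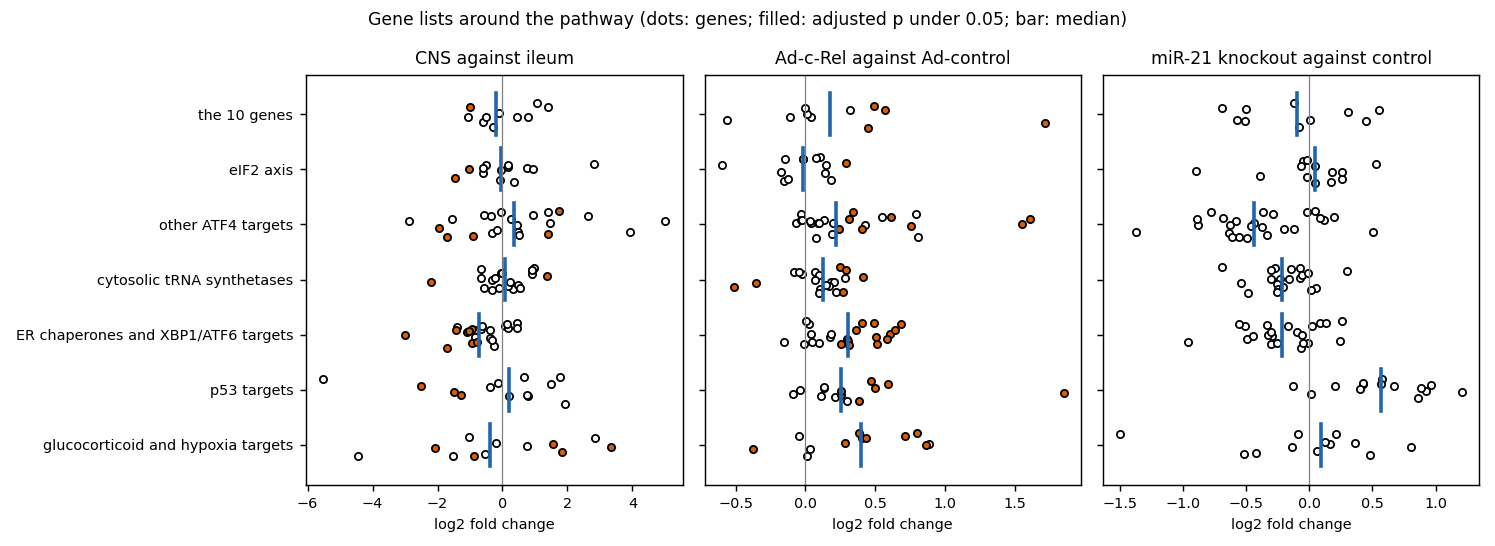
Log2 fold change of the 10 genes and of 6 gene lists (vertical axis) in the 3 comparisons, with a dot per tested gene, filled where the adjusted p was under 0.05, and a bar at the list's median. In Ad-c-Rel against Ad-control the medians of other ATF4 targets and chaperones are 0.22 and 0.30, while in the miR-21 knockout they are −0.44 and −0.21 with no filled dot.

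In the miR-21 knockout against control, edgeR called 0 of 10 members in either direction, as it called 0% of all 13428 genes higher and 0% lower. This result depended on the fit. A fit with replicate number as a block called members in both directions, as given under the dependence on processing. The labels do not say that these numbers mark a shared batch. Without knockout replicate 1, edgeR also called members in both directions. At an unadjusted p under 0.05 there were 4 members and 21.0% of all genes. DESeq2 called 0 members, with 2.58% of genes higher and 3.64% lower. The groups did not overlap in 6 of 10 members, against 54.3% of all genes, and the median log2 fold change was −0.10 over the members and −0.02 over all genes. The median over the members ran from −0.28 without control replicate 1 to 0.24 without control replicate 2. Without knockout replicate 1 that median was 0.15, beside −0.04 over all genes. The values by library, with adjusted p by edgeR, were as follows.

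Atf4 and Ddit3 lay above 0 in the knockout and the targets Asns and Trib3 below 0, without a call on either side. Atf4 had 310 and 383 CPM in the miR-21 knockout, against 231 and 269 CPM in control (log2 fold change 0.55, SE 0.213, adjusted p = 0.226). Ddit3 had 63.6 and 65.4 CPM in the knockout, against 42.5 and 56.7 CPM in control (0.45, SE 0.192, adjusted p = 0.257). In both genes each knockout library was above each control library. Asns had 42.7 and 27.9 CPM in the knockout, against 58.9 and 50.1 CPM in control (−0.57, SE 0.178, adjusted p = 0.172). Trib3 had 15.7 and 12.6 CPM in the knockout, against 21.2 and 26.3 CPM in control (−0.69, SE 0.190, adjusted p = 0.158). Each knockout library was below each control library for these targets.

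The other members split in the same way or overlapped. Sesn2 had 51.5 and 45.1 CPM in the knockout, against 42.1 and 39.8 CPM in control (0.30, SE 0.116, adjusted p = 0.222). Cebpb had 16.1 and 11.2 CPM in the knockout, against 18.1 and 22.1 CPM in control (−0.50, SE 0.212, adjusted p = 0.251). Neither of these overlapped between the groups. Ddit4 had 378 and 827 CPM in the knockout, against 490 and 910 CPM in control, so that replicate 2 was the higher library in both groups and the libraries overlapped (−0.12, SE 0.495). Ppp1r15a behaved likewise, with 37.1 and 59.1 CPM in the knockout, against 39.9 and 61.5 CPM in control (0.01, SE 0.342). Chac1 had 3.76 and 0.977 CPM in the knockout, against 4.18 and 2.70 CPM in control (−0.51, SE 0.582), and Atf5 13.1 and 12.5 CPM in the knockout, against 12.3 and 15.9 CPM in control (−0.08, SE 0.213).

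Gene lists in the knockout also held 0 called genes by edgeR in the fit of all 4 libraries without a replicate block. Without knockout replicate 1, 5 other ATF4 targets were lower, where 4.79% of all genes were, and 6 p53 targets higher, where 4.83% of all genes were. Of 25 tested other ATF4 targets, 20 had a log2 fold change below 0, with a median of −0.44, and 10 had an unadjusted p under 0.05, while DESeq2 called 2 lower. Atf3, given here after its values were seen because it is named in both other comparisons, had 24.9 and 22.7 CPM in the knockout, against 39.7 and 51.9 CPM in control (−0.88, SE 0.182, adjusted p = 0.129). Of 20 cytosolic tRNA synthetases 17 were below 0 (median −0.22, with 1 at an unadjusted p under 0.05 and 0 called by DESeq2). Of 22 chaperones and XBP1 or ATF6 targets 17 were below 0 (median −0.21, with 7 at an unadjusted p under 0.05 and 1 called lower by DESeq2). Of 14 p53 targets 13 were above 0, with a median of 0.57, 10 at an unadjusted p under 0.05 and 5 called higher by DESeq2. The 13 eIF2 axis genes had a median of 0.04, the 12 glucocorticoid and hypoxia targets 0.09, and the 17 tested mTORC1 control genes −0.06, with 3 eIF2 axis and 3 mTORC1 control genes at an unadjusted p under 0.05 and 0 glucocorticoid and hypoxia targets. DESeq2 called 1 eIF2 axis gene lower, 1 mTORC1 control gene higher and 0 glucocorticoid and hypoxia targets. In the same libraries myeloid and microglia markers summed to 142 and 124 CPM in the knockout, against 140.4 and 152 CPM in control.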

How the data were processed

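RNA-seq of 12 mouse TH17 libraries was analysed from the gene counts the authors deposited, 1 table per library. Tools named in the submitters' processing notes, without a role, are TopHat2 2.1.0, HTSeq 0.11.0, Trim Galore 0.4.4, CASAVA 1.4, Bowtie2, SAMtools, HOMER and DESeq2, with build mm10. Per the labels, sorted cells used a SMART-Seq v4 low-input kit and the miR-21 cultures TruSeq Stranded Total RNA. For the Ad libraries no kit is clearly named, and the strand setting of the counting is not given in the sources used here. Without strand, reads where Ddit3 overlaps Mbd6 or Mars1, Atf5 overlaps Nup62 or Il4i1b, or Ppp1r15a overlaps Tulp2 fit more than 1 gene. Ambiguous reads had their own line (1.89% to 3.04% of a table), so counts of these genes may be too low. The part of this in the Atf5 levels was not tested. Lines that name no gene (14.7% to 26.1% of a table) stayed out. The line for multiple alignments was 2.25% to 3.52% of a table, but 0 in the miR-21 tables, so near-identical gene copies may be counted differently there.

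The 4 libraries of a comparison were fitted alone in R 4.3.3 with edgeR 4.0.16 (filterByExpr, TMM, quasi-likelihood F test, two-sided, Benjamini-Hochberg adjustment over all genes tested, threshold 0.05). SE was derived as the size of the log2 fold change divided by √F. Against plain CPM, TMM moved log2 ratios by −0.20 in CNS against ileum, 0.06 in Ad-c-Rel against Ad-control and 0.07 in the knockout. Fold changes near 0 can thus differ in sign from the CPM shown, as for Asns in CNS, Atf4 and Trib3 in Ad-c-Rel and Ppp1r15a in the knockout. The procedure was tested on simulated counts. The members and lists were chosen with earlier results of these data known. Named genes are the 10 members, up to 3 called genes of smallest p per list and comparison, Rel, Mir21a and the 4 nearest profiles of Atf4, Ddit3 and Asns. Alternatives were DESeq2 1.42.0, RLE scaling, T cell identity scaling, no filter, a replicate block, all 12 libraries in one fit, TMM-scaled levels and each library left out. The symbols Mars1 and Castor1 of the lists matched no row under those names. The 8 ATAC-seq samples were not analysed here.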

Additional observations from a re-analysis of the deposited data

How the results depend on the processing

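In fits that left out no library, members called higher in CNS against ileum numbered 0, and 1 (Cebpb) with DESeq2, no filter, 12 libraries or T cell identity scaling. Those settings called 14.4%, 7.1%, 14.4% and 8.05% of all genes higher, in that order. Cebpb was also called higher without CNS replicate 1. Members called lower with no library left out numbered 1, against 2 with DESeq2 and no filter (Atf4, Ppp1r15a) and with 12 libraries (Atf4, Sesn2). With T cell identity scaling 0 were lower. The same settings called 15.1%, 8.29%, 14.6% and 3.18% of all genes lower. With added c-Rel, 4 members were higher, against 2 with DESeq2, 5 with no filter and 0 with 12 libraries. In that order, these 3 settings called 5.7%, 6.95% and 0.13% of all genes higher. With a library left out, the median log2 fold change over the members ran from 0.096 to 0.23. In the miR-21 knockout 0 members were called by edgeR or DESeq2 in fits that left out no library and used no block. Without knockout replicate 1, edgeR called members in both directions, and their median was 0.15. With a library left out, the median over the members ran from −0.28 to 0.24. With the replicate block, 3 were higher (Atf4, Ddit3, Sesn2) and 3 lower (Asns, Trib3, Cebpb), beside 17% of all genes higher and 18.8% lower. On the lists it called 16 of 25 other ATF4 targets, 8 of 20 tRNA synthetases and 7 of 22 chaperones lower, 1 higher on each, and 11 of 14 p53 targets higher. The labels do not say that a number marks a shared batch. Deviations of same-numbered libraries correlated at 0.632 in the miR-21 comparison, 0.0843 in CNS against ileum and 0.0782 in Ad-c-Rel against Ad-control. The block called 5 members higher with added c-Rel, beside 12.7% of all genes, and changed no other count of members. With TMM-scaled CPM the order of groups was the same for 6 of 10 members.

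Signs turned only where a member was not called. Under other settings these were Ddit3 (0.16) and Asns (0.31) with T cell identity scaling and Asns with the replicate block (0.19) in CNS against ileum, Trib3 with no filter (−0.0012) or 12 libraries (−0.00046) with added c-Rel, and Ppp1r15a with the replicate block (−0.011) in the knockout. With single libraries left out, the ranges that crossed 0 in CNS against ileum were −0.17 to 4.80 for Atf5, −0.77 to 0.020 for Ddit3, −0.78 to 1.19 for Asns and −1.86 to 1.06 for Chac1. With added c-Rel they were −0.069 to 0.15 for Atf4, −0.084 to 0.091 for Trib3 and −0.078 to 0.059 for Ddit4. In the knockout they were −0.27 to 0.17 for Atf5, −1.64 to 0.14 for Chac1, −0.90 to 0.45 for Ddit4 and −0.46 to 0.41 for Ppp1r15a. The causes of these changes were not tested. With 2 libraries a group and few counts for Chac1 and Atf5, differences within the replicate gaps were not detectable.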
